A study of Homo sapiens with 4 samples.

Results

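The genes described here were 32 genes of the p53 network. They were the p53 relative TP73, the feedback regulators of p53, and genes listed as p53 targets or named for p53. Whether p53 induces each of them, TP53INP2 and CCNG2 included, was not examined here. They were chosen by symbol from a list of names, with no measured value in the rule, and all 32 were present and protein-coding among the 61806 genes of the table. In the KEGG annotation deposited beside the values, 14 of the 32 carried the p53 signaling pathway.

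RNA-seq of poly(A)-selected RNA was carried out on human bone cancer cells kept in suspension, a state in which cells without attachment tend to die by anoikis. JJ012, a chondrosarcoma cell line, and 143B, an osteosarcoma cell line, were each left untreated as the control or given melatonin at 1 mM for 72 h. Suspension culture was shared by the controls, and the labels name no vehicle for them. The question was which transcripts differed with melatonin in each line. Each of the 4 groups was 1 library of 1 cell line, so there was no spread between replicates and no test between conditions, and every difference given here is a difference between those libraries.

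p53 is a transcription factor that is held at a low level by MDM2 and accumulates when DNA is damaged, when the nucleolus is disturbed or when growth signals are abnormal. It binds paired decamers near its target genes and switches on arrest of the cell cycle (CDKN1A), repair and nucleotide supply (XPC, RRM2B), antioxidant functions (SESN1) and death (TNFRSF10B, PERP). Many of these genes are also driven by other factors, so their mRNA levels alone do not give the activity of p53.

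The libraries held 15889564 to 19218343 counts over genes, and 13198 to 14477 genes reached 1 FPKM (fragments scaled to exonic length and to library total). Mitochondrial genes took 6.78% of counts in the JJ012 control and 4.35% with melatonin, and 1.63% and 2.46% in 143B. The 32 genes together took 0.137% of counts in the JJ012 control, 0.171% in JJ012 with melatonin, 0.207% in the 143B control and 0.231% in 143B with melatonin. Of the chondrocyte markers, SOX9 was present in JJ012 at 15.06 FPKM in the control and 6.16 with melatonin, and COL11A1 at 22.92 and 3.24, whereas ACAN, COL2A1 and HAPLN1 were at or near 0 FPKM in all 4 libraries. SOX9 stood at a similar level in the 143B control, with a log2 difference, JJ012 against 143B, of -0.04 between the controls. For COL11A1 that difference was 4.58. The 8 chondrocyte markers summed to 39 FPKM in the JJ012 control, 9.76 with melatonin, 16.7 in the 143B control and 13.3 with melatonin. Of the osteoblast markers, RUNX2 was present in 143B at 4.28 and 2.75 FPKM, whereas SP7, IBSP and ALPL were near 0. The 8 osteoblast markers summed to 6.97 FPKM in the 143B control and 5.08 with melatonin but to 107 and 68.3 FPKM in JJ012, where SPP1 stood at 79.39 and 64.50 and COL1A2 at 12.48 and 0.14. The osteoblast sum was thus lower in the osteosarcoma line than in the chondrosarcoma line. Summed FPKM of 5 leukocyte markers was 17.3 in the JJ012 control, 8.52 in JJ012 with melatonin, 0.99 in the 143B control and 1.27 in 143B with melatonin. PTPRC was near 0 throughout, but only 2 of the 5 were under 1 FPKM in each JJ012 library, against 5 and 4 in 143B. For 5 epithelial markers the sums were 21.6, 13.6, 46.9 and 32.4 FPKM in the same order. CDH1 was near 0, and 2, 3, 2 and 3 of these 5 were under 1 FPKM. For 4 endothelial markers the sums lay between 0.93 and 2.61 FPKM. The part of these markers and of the mitochondrial share in the results was not tested.

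Start regions of the genes were read from the RefSeq promoter table (GRCh38.p14, 250 bases before to 50 after each start), in which 28 of the 32 were matched. RRM2B, TP53INP1, PHLDA3 and TNFRSF10B were not matched. The p53 consensus site of 20 bases (adjoining decamers with no spacer, a palindrome, so that 1 scan covers both strands) was found with at most 2 mismatches in 4 of the 28, or 14.3%, against 0.820% of all 27305 genes with a promoter. With at most 3 mismatches it was found in 7 of the 28, or 25.0%, against 6.39% of all. The genes were listed as p53 targets, so an excess over all genes can come from that choice and is no result of these data. The best match over all start regions of a gene was taken, and MDM2 had 4, TP73 3 and SESN1 3. All genes together had 35116 start regions. Some of these starts lay inside the span of the gene, as with TP73 and SESN1, whereas the values that follow are for the whole gene. The sites are shown because they are the p53 binding letters next to a listed start of these genes. They have 5 flanking bases on each side and capitals for site bases that match the consensus.
DDB2 (chr11:47214964-47214993, + strand, 1 mismatch): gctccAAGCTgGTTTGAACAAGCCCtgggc
AEN (chr15:88621301-88621330, + strand, 2 mismatches): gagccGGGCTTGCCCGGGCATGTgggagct
MDM2 (chr12:68808918-68808947, + strand, 2 mismatches): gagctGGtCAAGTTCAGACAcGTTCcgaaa
TP73 (chr1:3690591-3690620, + strand, 2 mismatches): tcaccGGGCAAGCTgAGGCcTGCCCcggac
FDXR (chr17:74872991-74873020, - strand, 3 mismatches): ggcccGGGCAgGagCGGGCTTGCCCtgcgg
SESN1 (chr6:109009013-109009042, - strand, 3 mismatches): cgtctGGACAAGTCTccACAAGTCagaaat
XPC (chr3:14178565-14178594, - strand, 3 mismatches): aagtgGAAtTTGCCCAGACAAGCaacatgg

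A perfect single decamer was found in 5 of the 28 start regions (PLK2, DDB2, SESN1, FDXR and AEN), or 17.9%, against 8.06% of all. Many known p53 sites lie in introns or farther upstream, outside this window, and a match is a description of letters and not a bound site. Of the 7 genes with a site shown, AEN and XPC were called higher and FDXR lower with melatonin in JJ012, as described next. Of all genes tested in JJ012, 38.2% were called, 19.6% higher and 18.6% lower. None of the 7 was called in 143B, where 12.7% of all tested genes were and where TP73 and SESN1, under 1 FPKM, were not tested. With 7 genes, no excess or lack beside those shares can be read.

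In JJ012, a few of the 32 genes were higher with melatonin and most stayed under the threshold. Of 26 that reached 1 FPKM in at least 1 of the JJ012 libraries, 6 were called higher with melatonin (PLK3, ZMAT3, TNFRSF10B, TP53INP2, AEN and XPC), 1 was called lower (FDXR) and 19 were not called. A gene was called when its log2 fold change, on the log2(FPKM + 1) scale, was at least 0.58 in size. The share called was 26.9%, against 38.2% of all 15794 tested genes and 33.9% of the 11534 protein-coding ones. The share called higher was 23.1%, against 19.6% of all and 17.8% of protein-coding genes. The share called lower was 3.85%, against 18.6% of all and 16.1% of protein-coding genes. The median log2 fold change of the 26 was 0.20, against 0.01 over all tested genes, and 18 of the 26 lay above 0, against 50.4% of all. As these are bulk samples, more cells of a kind and more RNA per cell cannot be told apart.

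In 143B, 24 of the genes reached 1 FPKM, 2 were called higher (TP53INP2 and PLK3), 0 were called lower and 22 were not called. The share called was 8.33%, against 12.7% of all 14135 tested genes, with 6.09% of all called higher and 6.65% lower. Of the 10878 protein-coding genes, 6.09% were called, 3.48% higher and 2.60% lower. The median log2 fold change was 0.12, against 0.03 over all tested genes. Of the 24, 18 lay above 0, against 53.6% of all and 56.0% of protein-coding genes. With the trend of fold change over exonic length taken off, 14 of the 24 lay above 0, against 7065 of 14135 genes. RRM2B (0.00), TNFRSF10B (0.01), SUSD6 (0.02) and TP53INP1 (0.02) lay at the 0 line, and their signs turned with the scaling. The fold changes spanned -0.43 to 0.76 in 143B and -0.71 to 1.57 in JJ012.

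**Figure D1:**
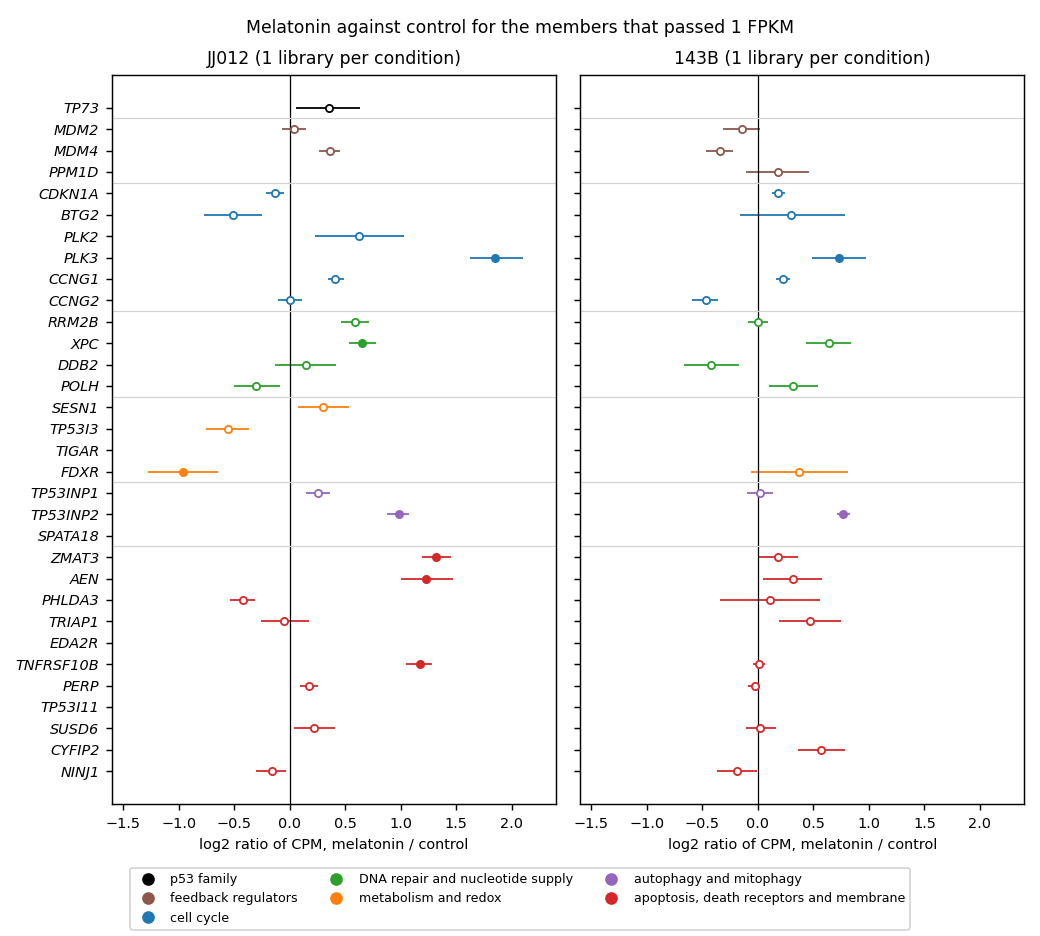
Log2 ratio of CPM (counts scaled to the library total), melatonin over control, for each gene tested in JJ012 and in 143B, with bars for the exact 95% counting interval. Filled points were called on the log2(FPKM + 1) scale and open points were not. The filled points are PLK3, ZMAT3, TNFRSF10B, TP53INP2, AEN, XPC and FDXR in JJ012 and PLK3 and TP53INP2 in 143B.

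TP53INP2 and PLK3 were called higher in both lines, 2 of 22 genes tested in both, or 9.09%, against 1.16% of the 11822 genes tested in both lines and 0.510% of the 9811 protein-coding ones. With the trend of fold change over exonic length taken off, PLK3 in 143B went from 0.62 to 0.56, under the threshold, which left TP53INP2 alone. PLK3 (ENSG00000173846, chromosome 1, 44800377 to 44805990, + strand) encodes a Polo-like kinase of the stress response. It stood at 3.00 FPKM in the JJ012 control and 10.85 with melatonin (192 and 583 counts), and at 4.37 FPKM in the 143B control and 7.23 with melatonin (231 and 413 counts). Both melatonin libraries thus lay above both control libraries. The log2 ratio of CPM, the counts scaled to the library total, was 1.85 in JJ012, with an exact 95% counting interval of 1.62 to 2.10, and 0.73 in 143B, with an interval of 0.49 to 0.97. These were 3.61-fold and 1.66-fold differences, and the former was the largest among the members tested in JJ012. Intervals here cover counting error only, since with 1 library per condition the spread between cultures was not measured. Reads without molecular identifiers are not independent molecules, so the intervals can be too narrow even for counting error.

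TP53INP2 (ENSG00000078804, chromosome 20, 34704339 to 34713439, + strand) encodes a nuclear protein that moves to the autophagosome and takes part in autophagy. It stood at 17.13 FPKM in the JJ012 control, 33.71 in JJ012 with melatonin, 57.00 in the 143B control and 97.08 in 143B with melatonin. The highest JJ012 value was thus below the lowest 143B value, and within each line the melatonin library was higher. The log2 CPM ratios were 0.98 in JJ012 (0.88 to 1.07) and 0.77 in 143B (0.71 to 0.83), or 1.97-fold and 1.70-fold. TP53INP2 overlaps NCOA6 on the opposite strand, and whether counting used strand is not given in the sources used here. NCOA6 held 1054 and 2526 counts in JJ012 and 1694 and 1708 in 143B, control and then melatonin.

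The bases upstream of both genes are shown because these were the genes called in both lines. Capitals mark TTTGAA, the letters of the CHR element of cell cycle promoters, searched on both strands.
PLK3, upstream bases (GRCh38.p14, chr1:44800127-44800376, + strand): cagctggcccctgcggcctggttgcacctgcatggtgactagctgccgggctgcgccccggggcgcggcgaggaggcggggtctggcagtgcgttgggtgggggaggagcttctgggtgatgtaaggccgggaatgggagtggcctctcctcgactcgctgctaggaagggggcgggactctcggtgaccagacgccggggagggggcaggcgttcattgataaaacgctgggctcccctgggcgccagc
TP53INP2, upstream bases (GRCh38.p14, chr20:34704094-34704343, + strand): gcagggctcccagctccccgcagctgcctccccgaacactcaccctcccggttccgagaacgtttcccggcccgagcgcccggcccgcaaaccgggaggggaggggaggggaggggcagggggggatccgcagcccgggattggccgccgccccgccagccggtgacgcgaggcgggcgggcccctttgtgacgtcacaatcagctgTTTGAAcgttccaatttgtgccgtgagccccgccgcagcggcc

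The TTTGAA letters were found in the start regions of 4 of the 28 matched genes (MDM4, DDB2, TP53INP2 and ZMAT3), or 14.3%, against 18.2% of all genes. Neither upstream stretch held the p53 site with at most 3 mismatches. Guanine and cytosine made up 70% of the PLK3 stretch and 72.8% of the TP53INP2 stretch, and the median over the whole start regions was 71.3% for the 28 matched genes against 58.3% for all genes.

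TP73 and the feedback regulators were not called in either line, but TP73 in 143B and PPM1D in JJ012 were under 1 FPKM and were not tested. TP73, which encodes the p53 relative p73, stood at 1.54 FPKM in the JJ012 control and 1.96 with melatonin, and at 0.32 and 0.19 FPKM in 143B. MDM2, the ubiquitin ligase that degrades p53 and is itself a p53 target, stood at 9.30 and 9.57 FPKM in JJ012 and at 4.50 and 4.08 FPKM in 143B. Its log2 CPM ratios were 0.04 (-0.07 to 0.15) in JJ012 and -0.14 (-0.31 to 0.02) in 143B, so that neither interval left 0. In JJ012 the sign for MDM2 turned with the scaling, from a log2 fold change of 0.04 to -0.21 once the trend of fold change over exonic length was taken off. MDM4, the MDM2 relative that inhibits p53, stood at 8.16 and 10.45 FPKM in JJ012 and at 6.49 and 5.11 FPKM in 143B. Its log2 CPM ratio was 0.36 (0.26 to 0.45) in JJ012 and -0.34 (-0.47 to -0.22) in 143B. PPM1D, the phosphatase that resets p53 signaling, was under 1 FPKM in JJ012, at 0.70 and 0.82, and stood at 1.28 and 1.44 FPKM in 143B.

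Of the 6 cell cycle genes tested in JJ012, PLK3 alone was called. CDKN1A, which encodes the cyclin-dependent kinase inhibitor p21 and is the best known p53 target, was the most abundant of the 32 genes in 3 of the 4 libraries. It stood at 55.11 FPKM in the JJ012 control and 50.41 with melatonin (3173 and 2438 counts), and at 94.30 and 107.14 FPKM in 143B (4489 and 5510 counts). The log2 CPM ratios were -0.13 (-0.21 to -0.05) and 0.18 (0.13 to 0.24), and neither fold change passed the threshold. In JJ012 the log2 fold change of CDKN1A was -0.13 with FPKM and 0.15 with TPM (FPKM rescaled to the same sum in each library), so that its sign there turned with the scaling. CCNG1, which encodes cyclin G1, a partner of the phosphatase PP2A, stood at 42.24 and 56.28 FPKM in JJ012 and at 67.93 and 79.56 in 143B. CCNG2, encoding cyclin G2, stood at 10.19 and 10.22 FPKM in JJ012 and at 11.89 and 8.56 in 143B, where its log2 fold change of -0.43 was the lowest of the 24. BTG2, an antiproliferative regulator of mRNA decay, stood at 6.45 and 4.54 FPKM in JJ012 and at 1.58 and 1.94 in 143B. PLK2, the other Polo-like kinase of the list, stood at 1.06 and 1.64 FPKM in JJ012 and was under 1 FPKM in 143B, at 0.46 and 0.88.

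**Figure D2:**
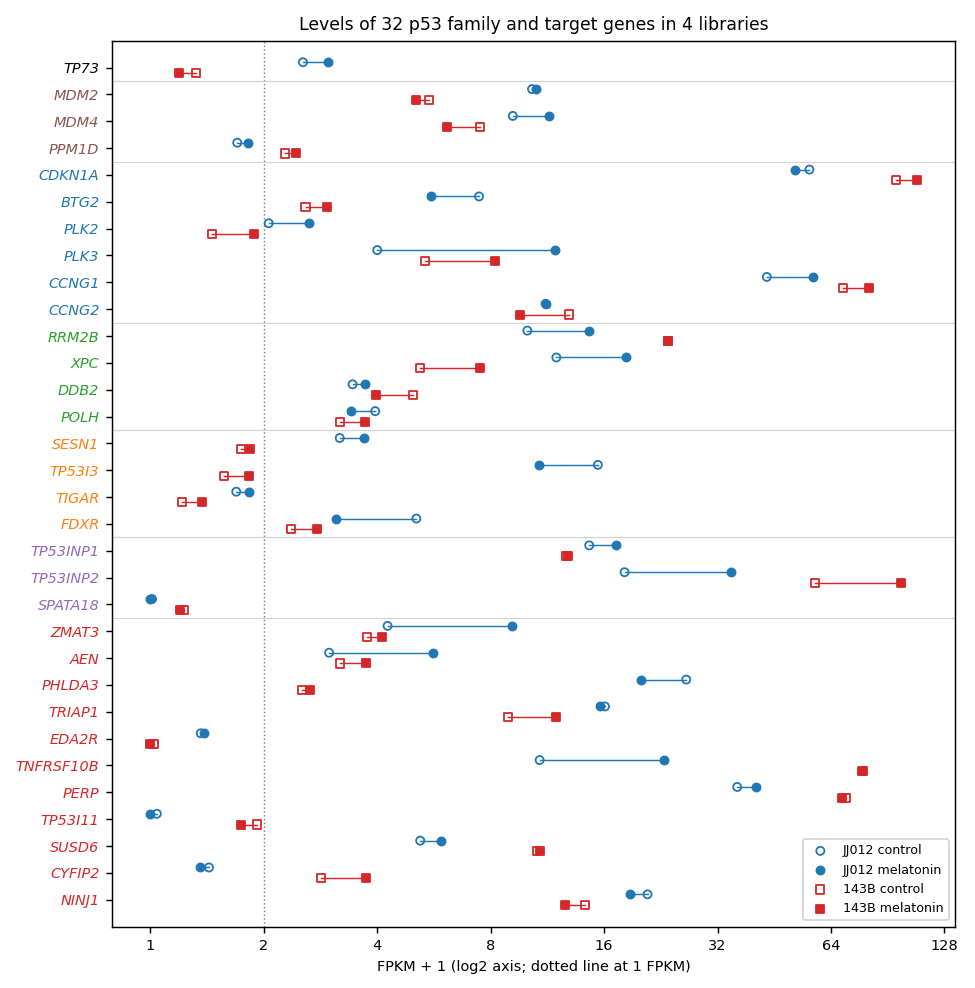
FPKM + 1 on a log2 axis for the 32 genes in the 4 libraries, with gene labels colored by role, open symbols for controls, filled symbols for melatonin, circles for JJ012 and squares for 143B. CDKN1A and CCNG1 lie at the high end in every library, and TIGAR, SPATA18, EDA2R and TP53I11 stay under the dotted line of 1 FPKM.

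Among the genes of DNA repair and nucleotide supply, XPC was called in JJ012 and none in 143B. XPC, the damage sensor of global nucleotide excision repair, stood at 10.95 FPKM in the JJ012 control and 17.24 with melatonin, and at 4.18 and 6.50 FPKM in 143B. Its log2 CPM ratios, 0.65 (0.53 to 0.78) and 0.64 (0.43 to 0.84), were near each other, while the log2 fold changes of 0.61 and 0.53 fell on either side of the threshold. The JJ012 call of XPC was lost at 0.56 once the length trend was taken off. On the log2(CPM + 1) scale XPC was called higher in both lines, at 0.64 in JJ012 and 0.61 in 143B. RRM2B, the p53-inducible subunit of ribonucleotide reductase, stood at 9.01 and 13.56 FPKM in JJ012, a log2 fold change of 0.54 just under the threshold, and at 22.64 and 22.67 FPKM in 143B. DDB2, which recognizes ultraviolet lesions, stood at 2.44 and 2.70 FPKM in JJ012 and at 3.98 and 2.97 in 143B. POLH, the translesion polymerase eta, stood at 2.95 and 2.41 FPKM in JJ012 and at 2.18 and 2.72 in 143B. POLH overlaps GTPBP2 on the opposite strand, which held 1849 and 2635 counts in JJ012 and 1154 and 1181 in 143B.

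Of the metabolic and redox genes, FDXR was the only member called lower with melatonin in either line. FDXR, ferredoxin reductase, passes electrons to mitochondrial ferredoxins and was at 4.08 FPKM in the JJ012 control and 2.10 with melatonin (282 and 122 counts). In 143B it was at 1.36 and 1.76 FPKM (78 and 109 counts). The log2 CPM ratio in JJ012 was -0.96 (-1.28 to -0.65), a 1.94-fold lower level, and in 143B it was 0.37 (-0.06 to 0.81). TP53I3, a quinone oxidoreductase linked to oxidative stress, stood at 14.40 and 9.78 FPKM in JJ012, a log2 fold change of -0.51 that did not pass the threshold, and at 0.57 and 0.83 FPKM in 143B. SESN1, encoding the leucine sensor and antioxidant protein sestrin 1, stood at 2.18 and 2.69 FPKM in JJ012 and at 0.74 and 0.84 in 143B. TIGAR, a fructose bisphosphatase that lowers glycolysis, was under 1 FPKM in all 4 libraries, between 0.21 and 0.83.

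Of the autophagy and mitophagy genes, TP53INP1, the homolog of TP53INP2, stood at 13.61 and 16.21 FPKM in JJ012 and at 11.70 and 11.85 in 143B and was not called. SPATA18, which encodes the mitochondrial quality control protein Mieap, was between 0.00 and 0.23 FPKM and was not tested in either line.

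Of the 8 apoptosis and membrane genes tested in JJ012, 3 were called, all higher (ZMAT3, AEN and TNFRSF10B), or 37.5%, against 38.2% of all genes called and 19.6% called higher. Of the 9 tested in 143B, 0 were called. ZMAT3, a zinc finger RNA-binding protein that regulates splicing, stood at 3.26 FPKM in the JJ012 control and 8.11 with melatonin (708 and 1480 counts), and at 2.75 and 3.11 FPKM in 143B (493 and 604 counts). The log2 CPM ratios of ZMAT3 were 1.32 (1.19 to 1.45) in JJ012 and 0.18 (0.01 to 0.36) in 143B. AEN, a nuclear exonuclease that aids DNA fragmentation in apoptosis, stood at 1.98 and 4.63 FPKM in JJ012 and at 2.19 and 2.73 in 143B. For AEN the log2 CPM ratios were 1.23 (1.00 to 1.47) and 0.32 (0.05 to 0.58). In both genes the JJ012 melatonin library stood above the other 3 libraries, which lay close together.

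TNFRSF10B encodes DR5, a death receptor for the ligand TRAIL. It stood at 9.79 FPKM in the JJ012 control and 22.00 with melatonin (943 and 1779 counts), and at 76.41 and 77.02 FPKM in 143B (6083 and 6623 counts). The JJ012 level with melatonin therefore remained below both 143B levels. The log2 CPM ratio was 1.17 (1.05 to 1.28) in JJ012 and 0.01 (-0.04 to 0.06) in 143B. TNFRSF10B overlaps RHOBTB2 on the opposite strand, which held 1356 and 1569 counts in JJ012 and 91 and 146 in 143B.

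The other apoptosis and membrane genes were not called. PERP, a membrane protein of desmosomes and apoptosis, stood at 35.08 and 39.46 FPKM in JJ012 and at 69.20 and 67.57 in 143B. PHLDA3, which inhibits AKT by binding membrane lipids, stood at 25.43 and 18.99 FPKM in JJ012 and at 1.53 and 1.65 in 143B. NINJ1, which mediates plasma membrane rupture in dying cells, stood at 19.86 and 17.72 FPKM in JJ012 and at 13.20 and 11.57 in 143B. TRIAP1, a mitochondrial lipid transfer subunit with a pro-survival role, stood at 15.08 and 14.62 FPKM in JJ012 and at 7.89 and 10.90 in 143B. In JJ012 the log2 fold changes of NINJ1 (-0.16) and TRIAP1 (-0.04) turned to 0.11 and 0.23 with TPM. SUSD6, a membrane protein induced by DNA damage, stood at 4.20 and 4.91 FPKM in JJ012 and at 9.63 and 9.79 in 143B. CYFIP2, a subunit of the WAVE actin regulatory complex, stood at 0.43 and 0.35 FPKM in JJ012, where it was not tested, and at 1.84 and 2.73 in 143B. The death receptor gene EDA2R was between 0.00 and 0.39 FPKM, and TP53I11 was at 0.04 and 0.00 FPKM in JJ012 and 0.92 and 0.74 in 143B, so neither was tested.

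The difference between lines was computed as the JJ012 log2 fold change less that of 143B, and 7 of the 22 genes tested in both lines, or 31.8%, passed 0.58 in size, against 39.7% of all 11822 genes and 37.4% of protein-coding genes. It was above the threshold for TNFRSF10B (1.08), ZMAT3 (0.96), PLK3 (0.95), AEN (0.69) and MDM4 (0.62), and below it for FDXR (-0.94) and BTG2 (-0.62). With the length trend taken off, MDM4 (0.29) and BTG2 (-0.33) were no longer past it and POLH (-0.67) was. On the CPM scale, with exact counting intervals of the ratio of ratios, the difference was 1.16 for TNFRSF10B (1.03 to 1.28), 1.13 for ZMAT3 (0.91 to 1.35) and 1.13 for PLK3 (0.79 to 1.47). It was -1.33 for FDXR (-1.87 to -0.79). The difference was nearer 0 for XPC, at 0.02 (-0.22 to 0.26), and for TP53INP2, at 0.21 (0.09 to 0.32). Of the 22 genes, 10 lay above 0 in both lines, 1 lay below 0 in both, 5 lay above 0 in JJ012 only and 6 lay above 0 in 143B only. The 143B signs of RRM2B, TNFRSF10B, SUSD6 and TP53INP1 turned with the scaling, as did some of the signs in JJ012.

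Before melatonin, the lines already differed for many of these genes. The comparison uses the same control libraries as the melatonin comparisons, so its values are not independent of them. Of 28 genes that reached 1 FPKM in a control library, 9 were called higher in JJ012 and 8 lower, or 60.7% together, against 68.7% of all 16929 tested genes, with 41.3% of all called higher and 27.4% lower. Of the 12329 protein-coding genes, 64.6% were called, 39.6% higher and 25.1% lower. TP53I3 was 25.2-fold higher in the JJ012 control than in the 143B control (640 against 21 counts) and PHLDA3 16.6-fold higher (1585 against 79 counts) on the CPM scale. TP73, MDM2, BTG2, XPC, SESN1, FDXR and TRIAP1 were 1.91-fold to 4.86-fold higher in JJ012. The control comparison had a length trend of its own, and with it taken off TRIAP1 went from a log2 difference of 0.86 to -0.10 and the median of the 28 from 0.19 to -0.13. TNFRSF10B was 7.80-fold lower in JJ012, and CYFIP2, TP53INP2, RRM2B, SUSD6, PERP, CDKN1A and CCNG1 were 1.61-fold to 4.30-fold lower. With that trend off, 8 genes were called higher (28.6%, against 29.8% of all) and 10 lower (35.7%, against 32.7%). Under TMM scaling 8 were called higher (28.6%, against 33.6% of all) and 11 lower (39.3%, against 34.2%). The control levels of all 3 tested metabolic genes (TP53I3, SESN1 and FDXR) were higher in JJ012, whereas the abundant CDKN1A, CCNG1 and PERP were higher in 143B. EDA2R, under 1 FPKM in both lines, held 25 counts in the JJ012 control and 1 in the 143B control, and TP53I11 held 6 and 107. CYFIP2, at 87 and 309 counts, overlaps ADAM19 on the opposite strand, which held 557 and 7319. TP73, at 200 and 34 counts, overlaps WRAP73 (906 and 367), TP73-AS1 (8 and 774) and TP73-AS3 (115 and 0) on the opposite strand. The part of these overlaps in the differences was not tested.

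**Figure D3:**
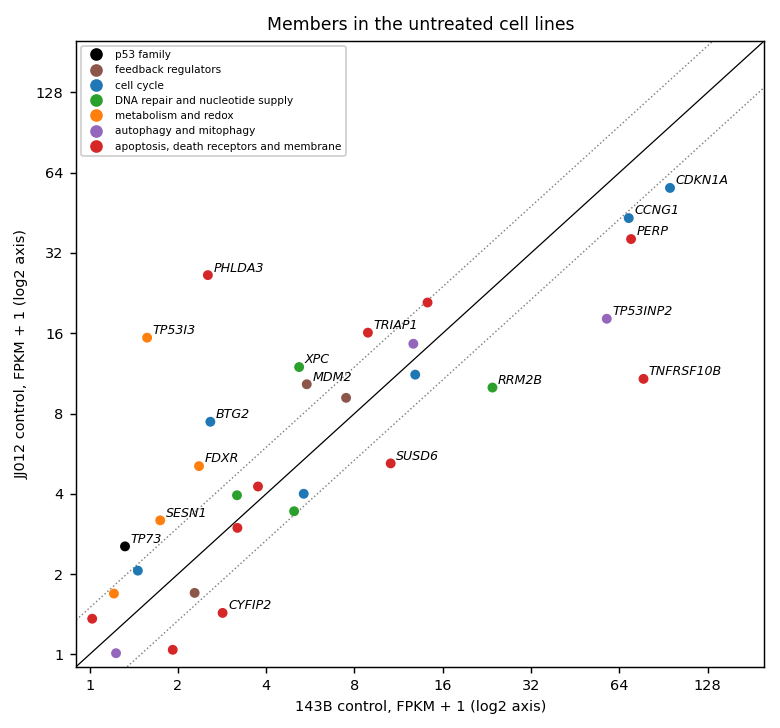
FPKM + 1 of each gene in the JJ012 control against the 143B control, both on log2 axes, with points colored by role, a solid line of equal level and dotted lines at a log2 difference of 0.58. PHLDA3 and TP53I3 lie farthest above the line and TNFRSF10B farthest below it.

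Fold changes in JJ012 varied with exonic length over all genes, and this touches the members. The 26 members tested in JJ012 had a median exonic length of 4744 bases (1411 to 11298). The median was 4068 bases over all genes tested in JJ012 and 5236 over the protein-coding ones. With the running median over length taken off, 6 genes were again called higher and 1 lower in JJ012, with CCNG1 (0.59) in place of XPC (0.56), and the median of the 26 was 0.13. Of all genes, 18.1% were then called higher and 16.4% lower. In 143B the same step left 1 gene called, as PLK3 dropped to 0.56, and the median of the 24 was 0.11. Of all genes in 143B, 5.73% were then called higher and 6.52% lower. TPM moved the median of all tested genes in JJ012 from 0.01 to 0.27 and raised the members called higher to 10, adding RRM2B (0.85), PLK2 (0.76), CCNG1 (0.69) and MDM4 (0.62). That was 38.5% of the members, near the 34.6% of all genes called higher with TPM.

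**Figure D4:**
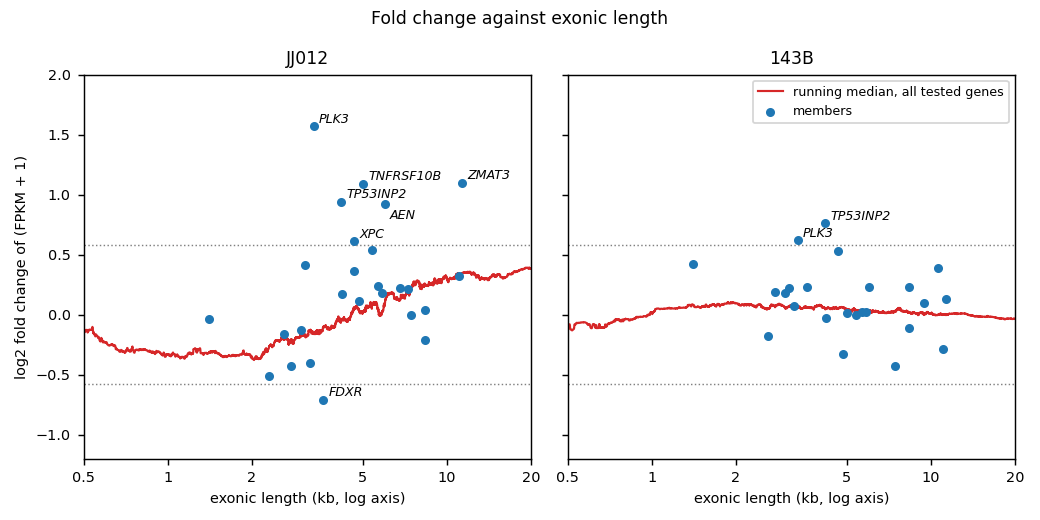
Log2 fold change of FPKM + 1 against exonic length in kilobases (log axis) for the members tested in JJ012 and in 143B, each point 1 gene, with the running median of all tested genes as a line and dotted lines at the threshold of 0.58. In JJ012 the line climbs with length, and the called genes PLK3, TP53INP2, TNFRSF10B, AEN and ZMAT3 lie well above it.

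Lists of neighboring genes gave the setting of these values. Of 45 genes outside the members and known to be induced by p53, 35 were tested in JJ012. Of these, 6 were called higher (17.1%, against 19.6% of all genes) and 7 lower (20%, against 18.6% of all), with a median log2 fold change of 0.08. These shares were near those of all genes. In 143B 35 were tested, 2 were called higher (5.71%, against 6.09% of all genes) and 1 lower (2.86%, against 6.65%), with a median of 0.02. In JJ012 the largest differences were upward for GDF15, a stress cytokine (13.81 to 188.41 FPKM), ACER2, an alkaline ceramidase (2.23 to 10.12 FPKM), and E2F7, a repressor of the E2F family (6.39 to 20.84 FPKM). They were downward for STEAP3, a metalloreductase (226.89 to 98.65 FPKM), TNFRSF10C, a decoy receptor for TRAIL (1.41 to 0.24 FPKM), and KITLG, the ligand of KIT (4.15 to 1.75 FPKM). In 143B GADD45A, a growth arrest protein (27.10 to 58.71 FPKM), and SERTAD1 (7.07 to 12.52 FPKM) were called higher and SFN, encoding 14-3-3 sigma (5.53 to 1.34 FPKM), lower.

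Of 30 regulators and cofactors of p53, 29 were tested in each line. In JJ012 13 were called higher, or 44.8% against 19.6% of all genes, and 1 lower (3.45%, against 18.6%), with a median of 0.48. In 143B 0 were called higher (against 6.09% of all genes) and 1 lower (3.45%, against 6.65%), with a median of -0.02. PRKDC, the catalytic subunit of DNA-dependent protein kinase, went from 7.44 to 19.03 FPKM in JJ012, the acetyltransferase EP300 from 5.11 to 12.58 and the deacetylase SIRT1 from 6.70 to 15.09. The 1 gene called lower in each line was AURKA, a mitotic kinase that phosphorylates p53, at 6.79 and 3.36 FPKM in JJ012 and 8.75 and 5.09 in 143B. With the length trend taken off, the JJ012 median was 0.29 and 5 regulators were called higher (PRKDC, EP300, CREBBP, USP10 and SIRT1, of which CREBBP and USP10 are named after their values were seen). That was 17.2% of the regulators, near the 18.1% of all genes then called higher.

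Of 25 cell cycle genes repressed through p53, p21 and the DREAM complex, 0 were called higher in either line on the FPKM scale, while with TPM BUB1 and FOXM1, named after their values were seen, were called higher in JJ012. In JJ012 7 of 25 tested were called lower, 28%, against 18.6% of all genes, with a median of -0.30. Under TMM scaling the excess was gone, with 16% called lower (BIRC5, CCNB1, KIF2C and MYBL2) against 15.9% of all genes, and with the length trend taken off the shares were 20% and 16.4%. In 143B 12 of 24 were called lower, 50%, against 6.65% of all genes, with a median of -0.55. The TMM count there was again 12, the same share of the list, against 6.82% of all genes called lower. With TPM it was 18, or 75%, against 10.8% of all genes. At a threshold of 1 MYBL2 alone was called lower, or 4.17%, near the 2.74% of all genes. The largest differences in JJ012 were in BIRC5, encoding survivin (3.90 to 0.91 FPKM), CCNB1, encoding cyclin B1 (18.35 to 8.43 FPKM), and the mitotic kinesin KIF2C (4.68 to 2.17 FPKM). In 143B they were in the transcription factor MYBL2 (8.37 to 3.57 FPKM), CCNA2, encoding cyclin A2 (6.80 to 2.93 FPKM), and the checkpoint kinase BUB1B (6.49 to 2.82 FPKM). The TTTGAA letters stood in 11 of 20 matched start regions of this list, or 55.0%. The log2 fold changes of CDKN1A, the p21 gene, were -0.13 in JJ012, where the sign turned with the scaling, and 0.18 in 143B. These are mRNA values, and the part of p21 in the values of this list was not tested.

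**Figure D5:**
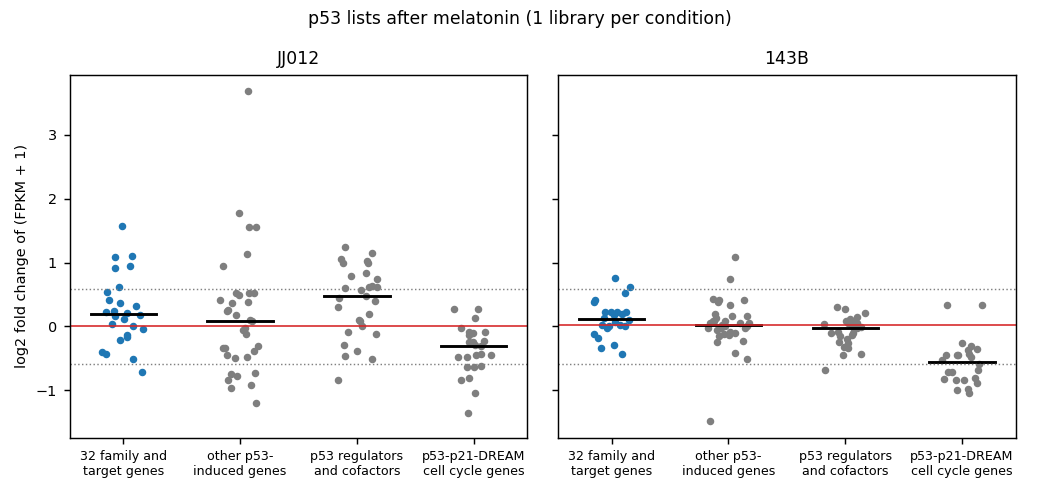
Log2 fold change of FPKM + 1 with melatonin in JJ012 and in 143B for the members and for the lists of other p53-induced genes, p53 regulators and repressed cell cycle genes, each point 1 tested gene each black bar the list's median, the red line the median of all tested genes and the dotted lines the threshold of 0.58. The medians of the cell cycle list are -0.30 and -0.55, below 0 in both lines, and those of the members are 0.20 and 0.12.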

How the data were processed

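RNA-seq values came from 1 table with a count and an FPKM value per gene and library. The submitters' processing notes list cutadapt 1.9.1, HISAT2 2.2.1, HTSeq 0.6.1, DESeq2 and the build hg38; the role of each tool, the annotation and the use of strand are not given in the sources used here. Counts were deposited by the authors as whole reads per gene, and FPKM was deposited by the authors as counts scaled to exonic length and to the library total. FPKM recomputed from the counts and lengths was within 0.005 of the deposited values. Columns marked T were read as melatonin.

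Genes with at least 1 FPKM in 1 or more of the libraries compared were tested for size of change only: log2((FPKM + 1)/(FPKM + 1)), called at 0.58 or more in size, without a p-value. CPM ratios carried exact Clopper-Pearson 95% intervals, and line differences exact conditional intervals. Library totals were 19218343 (JJ012 control), 16143700 (JJ012 melatonin), 15889564 (143B control) and 17164824 (143B melatonin), and a count of 0 allows up to 0.156 to 0.189 CPM (3 counts). TMM factors came from edgeR 4.0.16 in R 4.3.3, used for scaling only. Other steps used Python 3.11.15, numpy 2.4.6, scipy 1.17.1 and pandas 2.3.3, tested on simulated data. Gene positions are those of the table, and gene types are from GENCODE release 29. Proteins were not analysed here. Alternatives were another pseudocount, filter, threshold or scaling (TPM, CPM, TMM, centring, and the running median over 501 genes ordered by exonic length). The line-difference alternatives and the scan of the full p53 site with mismatches were chosen after seeing the data.

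The members and lists were chosen with earlier results of these data known. All 32 members were named, and from each other list at most the 3 called genes with the largest rise and the 3 with the largest fall per line.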

Additional observations from a re-analysis of the deposited data

Results flagged for a closer look

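For 3 genes, the counting intervals of the log2 CPM ratio lay on opposite sides of 0 in the JJ012 and 143B lines. The difference, JJ012 less 143B, was 0.70 for MDM4 (0.54 to 0.86), -0.31 for CDKN1A (-0.41 to -0.22) and -0.62 for POLH (-0.92 to -0.31). With 1 library per condition, whether the response to melatonin differed between the lines was not tested. With the length trend taken off, the JJ012 log2 fold change of MDM4 went from 0.32 to -0.00 and that of CDKN1A from -0.13 to 0.05, so that the sign of neither gene then differed between the lines. The direction of CDKN1A in JJ012 also turned with TPM, and POLH shares its locus with GTPBP2 on the opposite strand.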

How the results depend on the processing

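The labels give no replicate numbers and each condition had 1 library, so no replicate could be left out and no replicate block was fitted. A model with the cell lines as blocks, which would leave 1 residual degree of freedom, was not run. Genes called higher in JJ012 were 6, against 10 with TPM and 3 at a threshold of 1. The 10 were 38.5% of the members, against 34.6% of all genes, and the 3 were 11.5%, against 7.86%. The member called lower dropped out (0 called) with a filter of 5 FPKM and at a threshold of 1. Of all genes in JJ012, 17.7% and 6.88% were then called lower. In 143B the 2 called higher became 1 with the length trend taken off (4.17%, against 5.73% of all genes). The count became 0 at a threshold of 1 (against 1.71%). It became 3, with XPC added, on the CPM scale (12.5%, against 6.29%) and with a pseudocount of 0.1 FPKM (12.5%, against 10.7%). Between the controls, the 9 higher and 8 lower became 5 and 4 at a threshold of 1. Those were 17.9% and 14.3%, against 28.7% and 18.5% of all genes. The 7 line differences became 3 with a filter of 5 FPKM and 1 at a threshold of 1. The shares of all genes were not computed for these line differences, so the smaller counts cannot be told from the stricter cut. The JJ012 median of 0.20 was 0.50 with TPM. Apart from the construction of a stricter threshold or filter, the cause was not tested. Precision is limited by the single library per condition, and for genes under 100 counts, such as PLK2 in 143B, by the counts.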
